A study of Mus musculus with 22 samples.

Results

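The 35 genes described here mark the endothelium, the cell layer that lines blood and lymphatic vessels, or are expressed mainly in it. They were chosen by name, and each was read from a single probe set, which among those naming no other gene had the highest mean over all 22 arrays. All 35 had such a probe set, out of 18193 genes measured in the series. Of the 35 probe sets, 33 had a mean above 4.22, the median of all probe set means, and those of Gja5 and Sele were dimmer than that. The endothelial markers Pecam1 and Cdh5 were above this median on every array (5.14 to 8.15 and 4.59 to 7.86), but the median is not a detection limit. On the array where both were lowest (WT at 7 d, replicate 1), 5 genes beside Gja5 and Sele were below it. These were Sox17 (2.87), Erg (3.21), Robo4 (3.75), Clec14a (3.94) and Rasip1 (4.02).

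The tissue was granulation tissue, the vessel-rich connective tissue that fills a wound, grown into a viscose cellulose sponge implanted under the dorsal skin. The mice were either WT or carried the Mmp13 deletion on both alleles (Mmp13-/-), a germline loss of the collagenase MMP-13. The labels give a C57BL/6 x 129 mixed background and an age of 5 to 8 weeks for both genotypes. The line had been backcrossed to C57BL6 for at least 7 generations, WT animals descended from backcrossed heterozygotes, and the study used males. Sponges were taken at 7, 14 and 21 d, from 3 mice of each genotype at 7 d and from 4 at 14 d and at 21 d, with 1 array for 1 sample of each mouse. RNA was hybridized to Affymetrix arrays that measure the 3' end of transcripts, and the values are log2 expression values after RMA normalization, so a difference of 1 is a 2-fold difference in signal. The bulk RNA of a sponge holds many cell types, and fewer endothelial cells and less RNA per endothelial cell cannot be told apart in these data.

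New vessels in a wound sprout from existing ones. VEGF drives sprouting, Dll4 on the leading tip cell signals through Notch to its neighbours, and the new tubes are later stabilized by flow and by pericytes, the mural cells that wrap capillaries. Transcription factors of the SOXF family (Sox7, Sox17, Sox18) and of the ETS family (Erg) keep endothelial identity, the junction proteins Cdh5, Cldn5, Esam and Pecam1 hold the layer closed, and Plvap, Emcn and Gpihbp1 mark capillary and venular surfaces. Several genes of the group are not exclusive to endothelium: Cd34 is also carried by stromal and haematopoietic progenitors, Vwf and Selp by platelets, Tal1 by erythroid and mast cells, and Lyve1 by lymphatic endothelium and some macrophages.

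Mmp13 itself had log2 values of 7.62 to 8.63 on Mmp13-/- arrays and of 10.26 to 12.02 on WT arrays. Arrays were hybridized in 2 series, with unequal amounts of RNA and with different labelling kits. Series 1 holds 12 arrays, those of 7 d together with the first 3 replicates of 14 d in both genotypes, and series 2 the other 10, those of 21 d with the last replicate (4) of 14 d. Days 7 and 21 thus never share a series, and the comparison of 21 d with 14 d rests, within a series, on 1 array per genotype at 14 d. One WT array of 7 d (replicate 1) and one WT array of 14 d (replicate 3) stood apart in the endothelial genes. On the first, 31 of 35 genes lay below their own mean over the arrays, with a median deviation of -1.13, and the second had 34 of 35 above it with a median deviation of 0.71. The main counts and medians over the 35 genes that rest on these arrays are given with and without them. Values by role, most values of single genes and counts of groups without overlap are given with all arrays. Medians of the arrays lay between 4.16 and 4.27, and centring the arrays on their medians left the number of endothelial genes called at 8 in the comparison of WT tissue at 14 d with 7 d.

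Averaged over the 35 genes, the signal in WT tissue was lowest at 7 d and higher at 14 and 21 d, whereas in Mmp13-/- tissue it stayed nearly level. The WT arrays had means of 5.25, 6.37 and 6.00 at 7 d, of 6.42, 6.57, 7.07 and 6.43 at 14 d, and of 6.68, 6.68, 6.43 and 6.86 at 21 d. The Mmp13-/- arrays had means of 6.01, 6.38 and 6.46 at 7 d, of 6.41, 6.30, 6.38 and 6.19 at 14 d, and of 6.53, 6.40, 6.34 and 6.23 at 21 d. At 7 d the genotypes overlapped, at 14 d all 4 Mmp13-/- arrays lay just below all 4 WT arrays, and at 21 d 3 of the WT arrays lay above every Mmp13-/- array. The difference of the group means, Mmp13-/- minus WT, was 0.41 at 7 d, -0.30 at 14 d and -0.29 at 21 d. Without WT 7 d replicate 1 the first of these was 0.10, and without WT 14 d replicate 3 the second was -0.16. These means are given as a description, with no test.

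**Figure D1:**
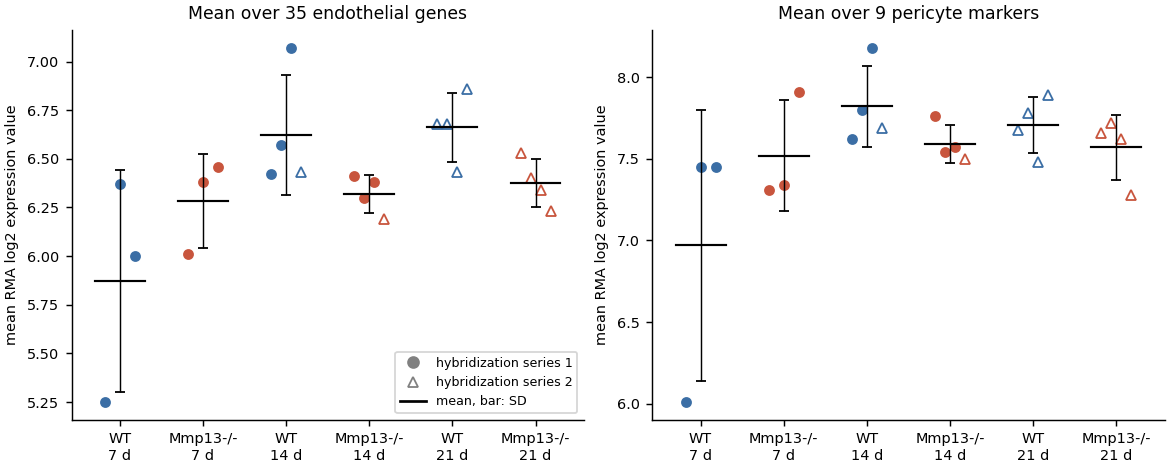
Mean RMA log2 expression value over 35 endothelial genes (left) and over 9 pericyte markers (right) on each array, by genotype and day; filled circles are hybridization series 1, open triangles series 2, lines and bars the mean and SD of a group. The WT 7 d array at 5.25 is the lowest and the WT 14 d array at 7.07 the highest of the endothelial means, and the same arrays are lowest (6.01) and highest (8.18) for the pericyte markers.

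The genes did not all follow this course. By group mean, WT tissue of 7 d was the lowest of the 6 groups for 25 of 35 genes, and WT tissue of 21 d or 14 d was the highest for 17 and 12 genes. Esam, Ptprb and Plvap each lay on the same side of their own mean as the average of the other 34 genes on 19 of 22 arrays, the median over the 35 genes was 16 arrays, and for Cd34, Apln and Sele it was 8, 8 and 7 arrays. Lyve1 had the widest range of group means (4.25, from 4.54 to 8.78) and Gja5 the narrowest (0.30).

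**Figure D2:**
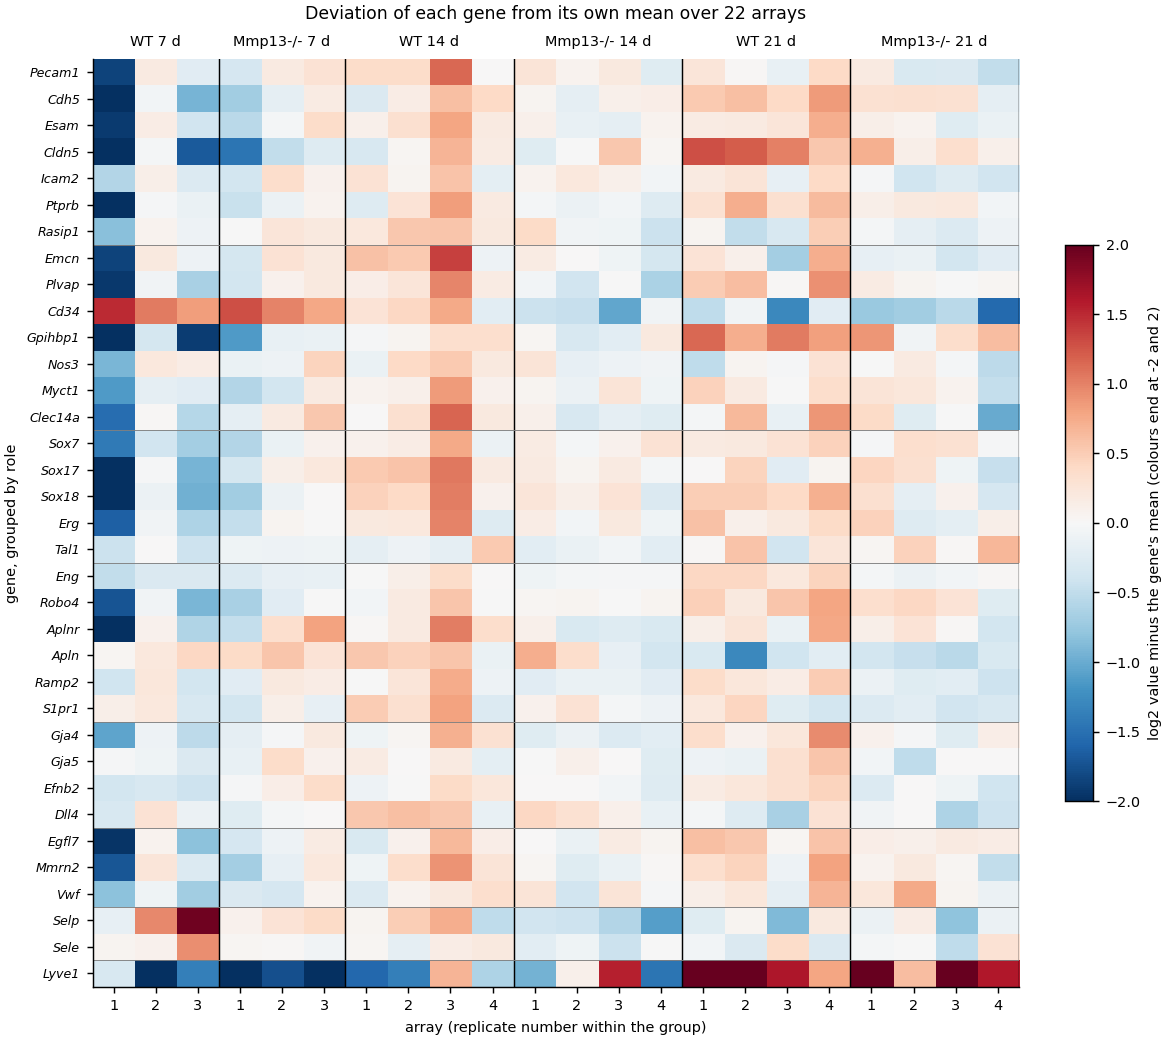
Deviation of each of the 35 genes (lines of the map, grouped by role) from its own mean over the 22 arrays (columns, by group and replicate), in log2 units, blue below and red above the mean. WT 7 d replicate 1 is blue for 31 of 35 genes, WT 14 d replicate 3 is red for 34 and WT 21 d replicate 4 is red for 31.

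In WT tissue, 8 endothelial genes rose from 7 d to 14 d and most others had higher means. Of 35 genes, 32 had a positive difference, the median was 0.84 (-0.003 over all 18193 genes, of which 49.2% were positive), and these 8 passed the test as higher (an adjusted p under 0.05 in limma, with every tested probe set in the Benjamini-Hochberg adjustment), where 1.13% of all probe sets were called higher. None was called lower, against 0.571% of all probe sets. The 8 were the transcription factors Sox18, Sox17, Sox7 and Erg, the receptors Eng and Robo4, and the capillary surface proteins Gpihbp1 and Plvap. At an unadjusted p under 0.05, 27 genes were higher, where 5.36% of all probe sets were.

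Sox18, mutated in a human syndrome of hair loss and faulty lymphatics, had values of 5.22, 7.49 and 6.66 on the WT arrays of 7 d and of 8.08, 8.02, 8.64 and 7.70 at 14 d. All arrays of 14 d lay above all of 7 d, and the fitted difference was 1.78 (standard error 0.34, adjusted p = 0.00756). The values of Sox17, an arterial factor of the same family, were 2.87, 5.02 and 4.12 at 7 d and 5.57, 5.61, 6.10 and 5.23 at 14 d, a difference of 1.71 (standard error 0.34, adjusted p = 0.00976). The groups of Sox17 did not overlap either, and neither did those of Sox7, which went from 4.33, 5.36 and 5.05 to 5.83, 5.89, 6.49 and 5.62 (difference 1.07, standard error 0.22, adjusted p = 0.0141). Erg, the ETS factor that maintains endothelial junctions, had values of 3.21, 4.77 and 4.22 at 7 d and of 5.03, 5.06, 5.83 and 4.59 at 14 d. One array of each day overlapped in Erg, and its difference of 1.17 (standard error 0.29) had an adjusted p of 0.0404. Tal1, the other transcription factor of the group, did not pass (difference 0.22).

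Endoglin (Eng), a TGF-beta co-receptor of proliferating endothelium, had the tightest replicates of the genes called. Its values were 7.35, 7.56 and 7.56 on the WT arrays of 7 d and 7.84, 7.96, 8.21 and 7.85 at 14 d, with no overlap and a difference of 0.49 (standard error 0.10, adjusted p = 0.0125). Robo4, a guidance receptor that steadies vessels, went from 3.75, 5.40 and 4.56 to 5.42, 5.65, 6.02 and 5.47, again without overlap (difference 1.10, standard error 0.27, adjusted p = 0.0455). Gpihbp1, which carries lipoprotein lipase to the capillary lumen, was at 5.33, 7.25 and 5.70 at 7 d and at 7.58, 7.66, 7.94 and 7.94 at 14 d. Its difference was 1.62 (standard error 0.34, adjusted p = 0.0154), and its groups were apart. Plvap, which forms the diaphragms of fenestrated capillaries, was at 6.50, 8.36 and 7.78 and then at 8.56, 8.67, 9.41 and 8.59, also apart, with a difference of 1.36 (standard error 0.31, adjusted p = 0.0281). Altogether 11 genes had all WT arrays of 14 d above all WT arrays of 7 d, where 5.72% of all probe sets did.

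These calls rest in part on the 2 WT arrays that stood apart. Without WT 7 d replicate 1, only Sox17 and Sox18 were called and the median difference was 0.51, and without WT 14 d replicate 3, only Sox18 was called (median 0.71). With both left out, which was added after the values had been seen, no endothelial gene was called, 9 were higher at an unadjusted p under 0.05, 31 of 35 differences were still positive and the median was 0.39. Without WT 7 d replicate 2, the highest of that day, 16 were called. Within hybridization series 1 alone, 4 were called (Dll4, Eng, Sox17 and Sox7), and in a fit to the arrays of these 2 groups alone none was.

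By role, and with all arrays in the fit, all 7 junction and adhesion genes had positive differences in WT tissue (0.51 to 1.48, median 1.11), all 7 at an unadjusted p under 0.05 and none after adjustment. Without WT 7 d replicate 1 these 7 differences were smaller, from 0.34 (Icam2) to 1.01 (Cldn5). Of the 7 luminal surface genes 6 were positive (median 1.16), of the 5 transcription factors 5 (median 1.17), of the 6 signalling receptors and ligands 6 (median 0.48), of the 4 arterial and Notch genes 4 (median 0.54), and of the 3 secreted proteins Egfl7, Mmrn2 and Vwf 3 (median 0.94). The inducible selectins Selp and Sele had negative differences (-0.52 and -0.36), as had Cd34 (-0.80, adjusted p = 0.294), which was below its 7 d values on all 4 arrays of 14 d.

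In Mmp13-/- tissue the same interval brought little change in most endothelial genes. Of 35 differences 21 were positive, the median was 0.11 (0.003 over all genes), and 1 gene was called, Cd34, which fell (0.628% of all probe sets were called). At an unadjusted p under 0.05 there were 2, Cd34 and Lyve1, against 6.65% of all probe sets, the share over both directions. Cd34, a sialomucin of capillary endothelium and of stromal progenitors, was at 10.32, 10.02 and 9.81 on the Mmp13-/- arrays of 7 d and at 8.60, 8.58, 7.99 and 8.96 at 14 d. The groups were far apart, and the difference was -1.50 (standard error 0.31, adjusted p = 0.0247). The call was lost when any one of 5 single Mmp13-/- arrays was left out (7 d replicates 1 and 2 and 14 d replicates 1, 2 and 3), and it held within series 1 (-1.66, adjusted p = 0.00444). WT tissue had Cd34 values of 10.53, 10.07 and 9.87 at 7 d and of 9.30, 9.44, 9.79 and 8.82 at 14 d.

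Lyve1, the hyaluronan receptor of lymphatic vessels, had values of 4.81, 5.05 and 3.75 on the Mmp13-/- arrays of 7 d and of 5.87, 6.91, 8.37 and 5.36 at 14 d. The groups did not overlap, but the spread at 14 d was wide, and the difference of 2.29 (standard error 0.69) did not pass (adjusted p = 0.211). The next 3 genes by p were Dll4 (0.40, adjusted p = 0.78), Cldn5 (0.82, adjusted p = 0.78) and Selp (-0.67, adjusted p = 0.866). The 8 genes called in WT tissue had differences of -0.14 (Plvap) to 0.48 (Sox18) in Mmp13-/- tissue.

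**Figure D3:**
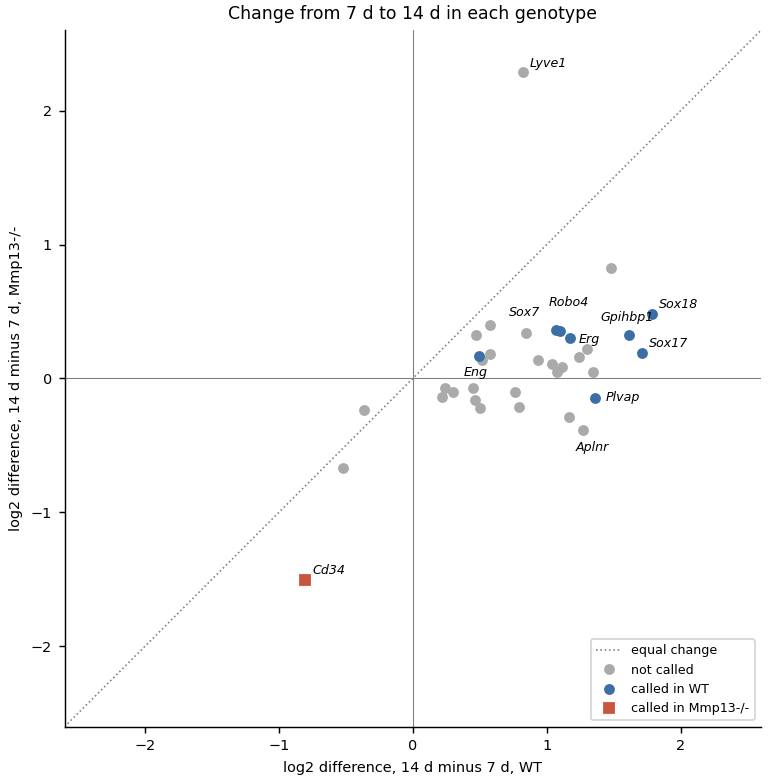
Fitted log2 difference of 14 d minus 7 d for each of the 35 endothelial genes in WT (horizontal) and Mmp13-/- tissue (vertical); blue circles were called in WT, the red square (Cd34) in Mmp13-/- tissue, and the dotted line marks equal change. All but 2 genes lie below the line, and the 8 genes called in WT lie between -0.14 and 0.48 on the vertical axis.

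The sequence ahead of the start site is shown for 3 of the genes that rose in WT tissue (Eng, Erg and Robo4) and for Cd34, which fell in Mmp13-/- tissue, since ETS factors such as Erg bind near many endothelial genes. Each line gives the 250 bases before the start site, 5' to 3' on the strand of the gene, from RefSeq on GRCm38.p6. They lie at chr2:32646345-32646594 (Eng, plus strand), chr16:95459349-95459598 (Erg, minus strand, 1 of its 3 windows), chr9:37401722-37401971 (Robo4, plus strand) and chr1:194938571-194938820 (Cd34, plus strand). Capitals mark only AGGAAG, the string searched for as an ETS motif, or its reverse complement CTTCCT. Shorter or other forms of ETS sites were not searched or marked. Only windows with a match are shown, and the other windows of Erg held none.
Eng: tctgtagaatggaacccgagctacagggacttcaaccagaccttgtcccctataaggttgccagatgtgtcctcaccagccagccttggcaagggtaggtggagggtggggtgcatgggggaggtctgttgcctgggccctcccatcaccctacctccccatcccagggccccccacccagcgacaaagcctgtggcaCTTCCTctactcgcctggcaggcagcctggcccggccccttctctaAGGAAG
Erg: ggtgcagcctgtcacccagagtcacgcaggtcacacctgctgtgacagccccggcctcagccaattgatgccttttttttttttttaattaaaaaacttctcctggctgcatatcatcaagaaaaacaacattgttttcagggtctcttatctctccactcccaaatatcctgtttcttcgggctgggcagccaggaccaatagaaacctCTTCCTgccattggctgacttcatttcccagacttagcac
Robo4: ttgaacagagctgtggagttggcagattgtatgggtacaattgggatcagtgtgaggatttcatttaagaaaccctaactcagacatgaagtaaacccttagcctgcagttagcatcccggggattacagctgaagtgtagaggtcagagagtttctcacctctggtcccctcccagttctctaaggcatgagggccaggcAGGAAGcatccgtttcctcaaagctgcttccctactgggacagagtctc
Cd34: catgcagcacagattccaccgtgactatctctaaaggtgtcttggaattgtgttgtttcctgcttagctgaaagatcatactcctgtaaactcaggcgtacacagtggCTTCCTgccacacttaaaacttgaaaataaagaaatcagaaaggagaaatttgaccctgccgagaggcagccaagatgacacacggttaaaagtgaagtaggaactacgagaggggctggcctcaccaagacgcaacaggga

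Eng held the motif at positions -52 (other strand) and -6 before the start site, Erg at -40 (other strand), Robo4 at -49 and Cd34 at -142 (other strand). Of the 35 genes 18 had a window of 250 bases before and 50 bases from the start site on, and 12 of these 18 (66.7%) held AGGAAG on either strand in at least 1 window, against 38.4% of 27025 genes. By window, 13 of their 23 held it, against 35.4% of 32851 windows. The SOX motif AACAAT was in 2 of the 18 genes, against 12.2% of all genes, and the GATA motif AGATAA in 3 (16.7%), against 12.7%. A match describes the letters and does not show that a factor binds there.

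The difference of 14 d minus 7 d was larger in WT than in Mmp13-/- tissue for 33 of 35 genes, the exceptions being Lyve1 and Sele. With both WT arrays that stood apart left out it was so for 32. All genes were read on the same arrays, so the genes in this count are not separate results. Tested gene by gene as the change of the genotype difference from 7 d to 14 d, 0 genes passed after adjustment in limma, as did 0% of all probe sets. At an unadjusted p under 0.05, 18 had a negative change, where 1.37% of all probe sets had one, and the median was -0.72 (0.003 over all genes). The smallest p-values were those of Efnb2 (-0.72, standard error 0.18, limma adjusted p = 1), Plvap (-1.50), Gja4 (-1.01), Sox17 (-1.52) and Aplnr (-1.65). Without WT 7 d replicate 1 there were 8 such genes (median -0.41), without WT 14 d replicate 3 there were 10 (median -0.61), and without both there were 4 (median -0.27). The change is made of the same arrays as the comparisons within a genotype and at each day, so these do not support one another.

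At 7 d, endothelial genes tended to be higher in Mmp13-/- than in WT tissue, with none called (0.00888% of all probe sets were). Of 35 differences 29 were positive, against 48.3% of all genes, and the median was 0.52 (-0.003 over all genes). At an unadjusted p under 0.05, 13 genes were higher, where 1.27% of all probe sets were, and 0 were lower, where 0.89% were. The count at an unadjusted p and the size of the median rest largely on 1 array. Without WT 7 d replicate 1, 1 gene was higher at an unadjusted p under 0.05 and the median was 0.12. The count of signs moved less, with 26 of 35 differences still positive. On that array the mean over 9 pericyte markers was also the lowest of the series (6.01, against 7.28 to 8.18 on all other arrays), as were those over 8 smooth muscle and myofibroblast markers (5.47) and over 8 skeletal muscle markers (5.56), while those over 8 platelet markers (6.04) and 7 neutrophil markers (7.55) were the highest. The part of the cell makeup of that sample in these differences was not tested.

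The gene that did not depend on that array was Efnb2, which encodes ephrin-B2, the ligand that sets arteries apart from veins. By its brightest probe set, its values at 7 d were 6.72, 6.77 and 6.68 in WT and 7.07, 7.22 and 7.45 in Mmp13-/- tissue. All 3 Mmp13-/- arrays lay above all 3 WT arrays, and the difference was 0.52 (standard error 0.14, limma adjusted p = 0.926), and 0.52 again without WT 7 d replicate 1. An exact permutation test gave p = 0.1 (two-sided), the smallest that 3 against 3 arrays allow. This value follows from the lack of overlap and adds nothing to it. Of the 3 other probe sets of Efnb2, 2 had the same sign at 7 d, and 2 had it in the change from 7 d to 14 d. Eng was the other gene whose Mmp13-/- arrays all lay above the WT arrays at 7 d, where 3.93% of all probe sets had this, and Sele, at the dim end, had all of them below. For Eng the margin was narrow, with 7.56 the highest value in WT and 7.57 the lowest in Mmp13-/- tissue. Gpihbp1 (1.04, adjusted p = 1), Sox17 (1.03, adjusted p = 1), Aplnr, the apelin receptor (1.06, adjusted p = 1), and Sox7 (0.61, adjusted p = 1) followed by p, and on WT 7 d replicate 1 their values of 5.33, 2.87, 7.00 and 4.33 were the lowest in the series.

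**Figure D4:**
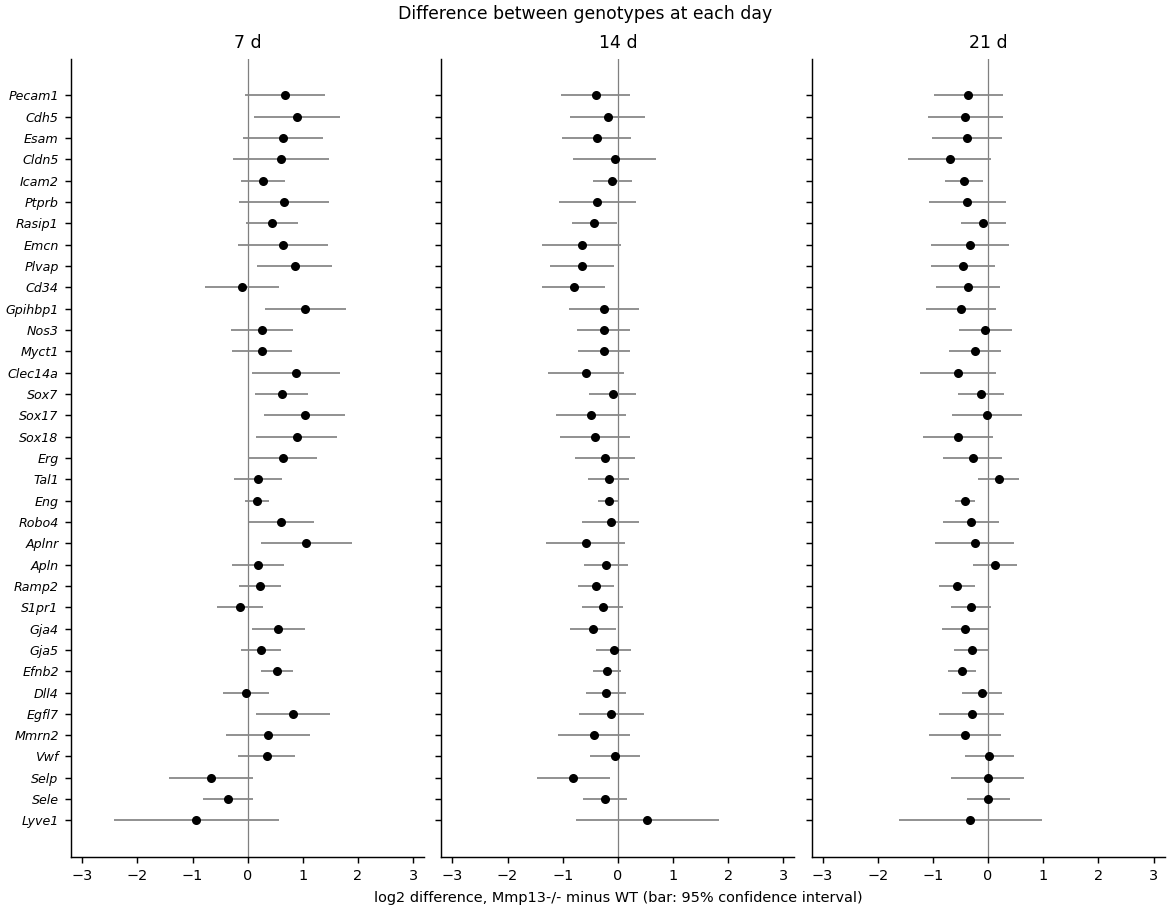
Fitted log2 difference between genotypes, Mmp13-/- minus WT, for each of the 35 endothelial genes at 7, 14 and 21 d; points are estimates and bars their 95% confidence intervals. At 7 d 29 points lie right of 0, at 14 d all but that of Lyve1 lie left of it, and at 21 d 31 lie left of it.

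At 14 d the order of the genotypes was the other way round. In Mmp13-/- tissue 34 of 35 genes had a lower mean than in WT, the exception being Lyve1 (0.53), and the median difference was -0.26 (0 over all genes, of which 50.1% were positive). No endothelial gene was called by limma (0.0178% of all probe sets were), and 6 were lower at an unadjusted p under 0.05, where 2.22% of all probe sets were. Cd34 had the smallest p, with a difference of -0.80 (standard error 0.28, adjusted p = 0.999) from the values given above, where Mmp13-/- replicate 4 overlapped with WT replicate 4. P-selectin (Selp), which catches leukocytes on activated venules, was at 5.50, 5.95, 6.18 and 4.95 in WT and at 5.07, 5.04, 4.87 and 4.35 in Mmp13-/- tissue (difference -0.81, standard error 0.32, adjusted p = 0.999). Ramp2, the subunit through which endothelium responds to adrenomedullin, was at 7.20, 7.45, 7.94 and 7.10 in WT and at 6.98, 7.07, 7.07 and 6.98 in Mmp13-/- tissue (difference -0.40, standard error 0.16, adjusted p = 0.999). Its groups did not overlap, nor did those of Plvap (8.37, 8.04, 8.42 and 7.80 in Mmp13-/- tissue, difference -0.65), Gja4 or Eng (up to 7.82 in Mmp13-/- tissue, from 7.84 in WT). These were the 4 genes whose Mmp13-/- arrays all lay below the WT arrays, where 1.9% of all probe sets had this. Gja4, the gap junction protein connexin 37 of arterial endothelium, was at 5.38, 5.50, 6.17 and 5.76 in WT and at 5.22, 5.34, 5.19 and 5.25 in Mmp13-/- tissue (difference -0.45, standard error 0.20, adjusted p = 0.999).

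Without WT 14 d replicate 3, 1 endothelial gene was lower at an unadjusted p under 0.05 at 14 d, 29 differences were negative and the median was -0.18. The differences of Selp, Ramp2, Plvap and Gja4 were then -0.69, -0.24, -0.47 and -0.28. With WT 7 d replicate 1 left out as well, 4 were lower. That WT array of 14 d also had the highest means over the keratinocyte (5.16) and pericyte (8.18) markers of the series. Whether skin or mural tissue in that sample bore on the endothelial values was not tested.

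At 21 d the difference was again mostly below 0, in 31 of 35 genes, with a median of -0.32 (-0.01 over all genes, of which 47.4% were positive). No endothelial gene passed in limma, where 0.0488% of all probe sets did, and 5 were lower at an unadjusted p under 0.05, where 6.15% of all probe sets were. One WT array of 21 d (replicate 4) had 31 of 35 genes above their own mean, with a median deviation of 0.51. Without it 28 differences were negative, the median was -0.25 and 5 genes were again lower at an unadjusted p under 0.05. Eng came closest to the threshold. Its values were 8.25, 8.26, 8.06 and 8.29 in WT and 7.81, 7.73, 7.79 and 7.86 in Mmp13-/- tissue, without overlap, and the difference was -0.42 (standard error 0.09, adjusted p = 0.0667). Of all settings tried, it was called in the one that left out WT 21 d replicate 3. In WT tissue Eng thus had its highest values at 21 d, while in Mmp13-/- tissue the values of 14 d (7.75, 7.81, 7.82 and 7.82) and of 21 d covered the same range.

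Efnb2, which had a higher mean in Mmp13-/- tissue at 7 d, had a lower one there at 21 d. Its values were 6.81, 7.10, 7.01 and 6.69 against 7.25, 7.32, 7.41 and 7.54 in WT (difference -0.48, standard error 0.12, limma adjusted p = 0.113). It was called at neither day, and the change of its genotype difference from 7 d to 21 d was not tested. Ramp2 was at 7.09, 6.96, 6.99 and 6.79 against 7.57, 7.43, 7.36 and 7.71 (difference -0.56, standard error 0.16, adjusted p = 0.154). In both genes the highest Mmp13-/- array stayed below the lowest WT array. Of the 3 other probe sets of Efnb2, 1 had the same sign at 21 d (-0.29) and the other two, both below the median of all probe set means, did not (0.08 and 0.24). An exact permutation test (two-sided, unadjusted) gives p = 0.0286, the smallest that 4 against 4 arrays allow, to every gene whose groups do not overlap. Eng, Efnb2 and Ramp2 thus had this value, which adds nothing to the lack of overlap. The adhesion molecule Icam2 (-0.44, adjusted p = 0.307) and Gja4 (-0.42, adjusted p = 0.416) followed, Gja4 with -0.24 when WT 21 d replicate 4 was left out. Cdh5, Esam, Ptprb and Sox18 also had all Mmp13-/- arrays below the WT arrays, which made 7 of 35 genes, where 1.61% of all probe sets had this. The change of the genotype difference from 14 d to 21 d passed in no endothelial gene by limma, with 0 called (0% of all probe sets) and 0 at an unadjusted p under 0.05 (6.58% of all probe sets).

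**Figure D5:**
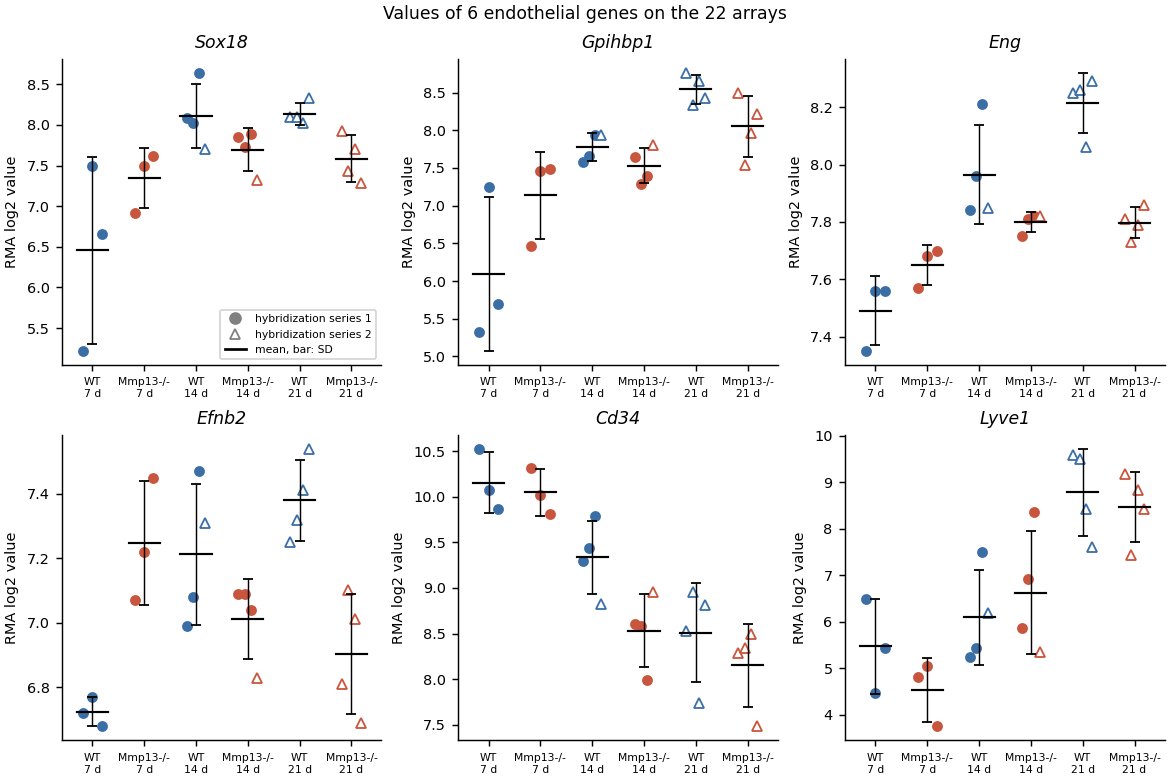
RMA log2 values of Sox18, Gpihbp1, Eng, Efnb2, Cd34 and Lyve1 on the 22 arrays, by genotype and day (each panel has its own vertical scale); filled circles are hybridization series 1, open triangles series 2, lines and bars the mean and SD of a group. Eng lies between 8.06 and 8.29 in WT and between 7.73 and 7.86 in Mmp13-/- tissue at 21 d, and in both genotypes Cd34 has its highest mean at 7 d and Lyve1 at 21 d.

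Between 14 d and 21 d, 0 endothelial genes were called in WT tissue (0.42% of all probe sets were) and 0 in Mmp13-/- tissue (0.0799%). At an unadjusted p under 0.05 there were 3 in WT tissue, where 14.1% of all probe sets had one, and 2 in Mmp13-/- tissue, where 13.7% had one. The medians were 0.13 and 0.12. Lyve1 had the smallest p in both. On the WT arrays it went from 5.25, 5.44, 7.50 and 6.19 at 14 d to 9.59, 9.50, 8.43 and 7.61 at 21 d (difference 3.27, standard error 0.82, adjusted p = 0.0783), and on the Mmp13-/- arrays from the values above to 9.17, 7.43, 8.83 and 8.42 (difference 2.42, standard error 0.82, adjusted p = 0.195). All WT arrays of 21 d lay above all of 14 d, while in Mmp13-/- tissue 1 array of 14 d, at 8.37, reached into the range of 21 d. In Mmp13-/- tissue the difference was 1.29 without Mmp13-/- 14 d replicate 4 and 3.10 without WT 14 d replicate 4, the arrays of 14 d in series 2. The fitted differences allow for the hybridization series, and without that term Lyve1 was called in WT tissue (2.69, adjusted p = 0.0119). In WT tissue Eng (0.30, adjusted p = 0.262), Cd34 (-0.78, adjusted p = 0.34), Cldn5 (0.88, adjusted p = 0.419) and Gja5 (0.35, adjusted p = 0.453) came next, and in Mmp13-/- tissue Selp (0.98, adjusted p = 0.305), Plvap (0.62, adjusted p = 0.48), Tal1 (0.23, adjusted p = 0.707) and Erg (0.32, adjusted p = 0.721). Leaving out either of these 2 arrays moved several values. Without WT 14 d replicate 4, Cd34 in WT tissue was at -1.57, Eng at 0.18 and, in Mmp13-/- tissue, Erg at 0.12 and Tal1 at 0.52, and without Mmp13-/- 14 d replicate 4 Cd34 was at -0.31, Erg at 0.66 and Tal1 at -0.23. Gja5 was at 0.21 without WT 21 d replicate 4.

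Among the remaining junction genes, given as mean ± SD with n = 3 at 7 d and n = 4 at each later day, VE-cadherin (Cdh5), the main adhesion molecule of endothelial junctions, was at 5.87 ± 1.19, 7.22 ± 0.38 and 7.60 ± 0.19 in WT and at 6.77 ± 0.43, 7.04 ± 0.14 and 7.19 ± 0.25 in Mmp13-/- tissue over the 3 days. The adhesion molecule Pecam1 was at 6.36 ± 1.08, 7.47 ± 0.48 and 7.12 ± 0.24 in WT and at 7.04 ± 0.33, 7.07 ± 0.22 and 6.76 ± 0.29 in Mmp13-/- tissue. Claudin-5 (Cldn5), the tight junction protein, was at 6.10 ± 1.16, 7.58 ± 0.41 and 8.45 ± 0.34 in WT and at 6.70 ± 0.64, 7.52 ± 0.33 and 7.76 ± 0.28 in Mmp13-/- tissue. The order of its means followed the days in both genotypes, which was not so for Pecam1. Esam was at 6.68 ± 1.07, 7.74 ± 0.30 and 7.73 ± 0.27 against 7.32 ± 0.46, 7.36 ± 0.15 and 7.34 ± 0.17. The receptor phosphatase Ptprb, which restrains Tie2 signalling, was at 6.26 ± 1.29, 7.33 ± 0.45 and 7.58 ± 0.22 against 6.91 ± 0.26, 6.96 ± 0.09 and 7.19 ± 0.12. Icam2 (6.24 ± 0.36, 6.67 ± 0.33 and 6.66 ± 0.24 against 6.52 ± 0.36, 6.57 ± 0.11 and 6.22 ± 0.17) and Rasip1 (4.56 ± 0.48, 5.23 ± 0.20 and 4.79 ± 0.44 against 4.99 ± 0.13, 4.80 ± 0.33 and 4.70 ± 0.10) moved within a narrower range.

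Of the remaining surface genes, endomucin (Emcn) was at 5.71 ± 1.11, 6.89 ± 0.61 and 6.40 ± 0.58 in WT and at 6.35 ± 0.35, 6.23 ± 0.22 and 6.08 ± 0.11 in Mmp13-/- tissue. Clec14a, a lectin of sprouting vessels, was at 4.77 ± 0.78, 5.88 ± 0.51 and 5.80 ± 0.50 against 5.65 ± 0.37, 5.30 ± 0.18 and 5.24 ± 0.59. In both, the WT mean was lowest at 7 d and the Mmp13-/- mean highest at 7 d. Nos3, the endothelial nitric oxide synthase, was at 5.39 ± 0.63, 5.82 ± 0.29 and 5.53 ± 0.34 against 5.65 ± 0.32, 5.56 ± 0.19 and 5.48 ± 0.29, and Myct1 at 5.35 ± 0.54, 6.14 ± 0.38 and 6.11 ± 0.20 against 5.60 ± 0.39, 5.89 ± 0.17 and 5.88 ± 0.34. The secreted factor Egfl7 was at 6.63 ± 1.02, 7.68 ± 0.39 and 7.98 ± 0.27 against 7.45 ± 0.26, 7.56 ± 0.12 and 7.68 ± 0.03, and the matrix protein Mmrn2 at 6.86 ± 1.02, 7.80 ± 0.41 and 7.82 ± 0.37 against 7.23 ± 0.45, 7.37 ± 0.13 and 7.40 ± 0.30. Von Willebrand factor (Vwf), stored by endothelium and platelets, was at 6.55 ± 0.39, 7.17 ± 0.26 and 7.29 ± 0.36 against 6.90 ± 0.22, 7.11 ± 0.30 and 7.32 ± 0.38, with means in the order of the days in both genotypes.

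Of the signalling genes, Aplnr was at 8.17 ± 1.07, 9.41 ± 0.44 and 9.27 ± 0.38 in WT and at 9.23 ± 0.65, 8.82 ± 0.20 and 9.02 ± 0.27 in Mmp13-/- tissue. Its ligand apelin (Apln), a tip cell product, had its lowest means at 21 d in both genotypes, at 7.23 ± 0.19, 7.37 ± 0.33 and 6.46 ± 0.50 against 7.42 ± 0.14, 7.15 ± 0.50 and 6.60 ± 0.10. The WT arrays of 21 d were all below those of 14 d for Apln, but the fitted difference, which allows for the hybridization series, was -0.41 (adjusted p = 0.496), and it was called only without that term. The sphingosine phosphate receptor S1pr1 was at 6.12 ± 0.28, 6.46 ± 0.46 and 6.14 ± 0.37 against 5.99 ± 0.24, 6.18 ± 0.17 and 5.83 ± 0.07. The Notch ligand Dll4 had its highest means at 14 d, at 4.69 ± 0.31, 5.13 ± 0.35 and 4.58 ± 0.40 against 4.65 ± 0.13, 4.91 ± 0.25 and 4.47 ± 0.29. The arterial connexin Gja5 (2.48 to 2.78 over the group means) and Sele (2.42 to 2.96) stayed in the dim range throughout, and Tal1 had group means of 4.79 to 5.36.

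Where a gene had further probe sets of its own, their direction was compared. The 35 genes had 25 such probe sets, and 22 had the sign of the brightest one for WT tissue from 7 d to 14 d, 21 for Mmp13-/- tissue over that interval, and 19, 20 and 18 for the genotype difference at 7, 14 and 21 d. A second probe set of Sox17 was also called in WT tissue (0.84, adjusted p = 0.0459), while that of Sox7, which was dim, had a difference of -0.05.

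Other genes of the vessel wall were taken from lists of known members. In the VEGF and Tie receptor system, 11 of 14 genes had positive differences in WT tissue from 7 d to 14 d (median 0.35), and 2 were called, the VEGF receptor Flt1 (0.76, adjusted p = 0.0181) and the lymphatic growth factor Vegfc (0.81, adjusted p = 0.0399). In Mmp13-/- tissue none was, with a median of 0.16. Of 12 Notch pathway genes outside the group, 11 were positive in WT tissue (median 0.27) and 2 were called, Nrarp, a feedback target of Notch (1.17, adjusted p = 0.0161), and Notch3, the receptor of mural cells (1.37, adjusted p = 0.0166), while none was called in Mmp13-/- tissue. Of 12 further transcription factors, Epas1 (1.28, adjusted p = 0.0121) and Bcl6b (0.73, adjusted p = 0.0408) rose and the flow-responsive factor Klf2 fell (-0.81, adjusted p = 0.0158) in WT tissue, and Klf4 fell in Mmp13-/- tissue (-1.05, adjusted p = 0.0399). Of 21 other endothelial genes 15 were positive in WT tissue (median 0.26), where Adgrl4 rose (1.16, adjusted p = 0.0428), and 6 in Mmp13-/- tissue (median -0.07). Thbd, thrombomodulin, fell in both (-0.68, adjusted p = 0.0222 and -0.69, adjusted p = 0.0386). None of these genes was called between genotypes. In WT tissue from 7 d to 14 d, 1.13% of all probe sets were called higher and 0.571% lower. The calls in these lists are given only with all arrays in the fit. Among the endothelial genes, 8 calls fell to 2 without WT 7 d replicate 1 and to 1 without WT 14 d replicate 3. With both left out, 0 remained. Of 5 lymphatic markers, Reln rose from 14 d to 21 d in WT tissue (3.24, adjusted p = 0.0227), and 4 of 5 were positive in each genotype (medians 1.64 and 0.94).

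Markers of mural cells mostly had differences of the same sign as the endothelial genes, and the same 2 WT arrays were their extremes. The 9 pericyte markers, with means of 6.01 to 8.18 per array, had 9 positive genotype differences at 7 d (median 0.64), 8 negative ones at 14 d (median -0.25) and 6 negative ones at 21 d (median -0.24). In WT tissue from 7 d to 14 d 8 of 9 were positive (median 1.01), and Pdgfrb (1.57, adjusted p = 0.0113) and Notch3 (also on the Notch list) were called, while the median in Mmp13-/- tissue was 0.07 with none called. By group, the mean over the list ranged from 6.01 to 7.45 in WT at 7 d, from 7.31 to 7.91 in Mmp13-/- at 7 d, from 7.62 to 8.18 and from 7.50 to 7.76 at 14 d, and from 7.48 to 7.89 and from 7.28 to 7.72 at 21 d. The value of 6.01 was WT 7 d replicate 1, while replicates 2 and 3 were both at 7.45, inside the Mmp13-/- range of that day. The value of 8.18 was WT 14 d replicate 3. The part of vessel-wall content as a whole in the endothelial differences was not tested. Of the 8 smooth muscle and myofibroblast markers 7 were positive from 7 d to 14 d in each genotype (medians 0.81 in WT and 0.64 in Mmp13-/- tissue, with 3 and 2 called), and their genotype medians were 0.15, -0.11 and -0.04. The calls among pericyte and smooth muscle markers are likewise given only with all arrays in the fit.

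Markers of other cells that carry some of the 35 genes were also read. The 8 platelet and megakaryocyte markers had genotype medians of -0.07, -0.06 and 0.15 at 7, 14 and 21 d, with means per array of 5.50 to 6.04. The 10 macrophage markers had medians of 0.04, 0.05 and 0.03 and means of 9.28 to 10.15. The 11 fibroblast markers had medians of 0.03, -0.33 and -0.20, with lumican (Lum) called lower at 14 d (-0.94, adjusted p = 0.0274). With Cd34, Lyve1, Selp, Vwf, Tal1, Pecam1, S1pr1 and Icam2, which other blood and stromal cells can carry, left out, the mean over the other 27 genes was 5.69 ± 0.69, 6.59 ± 0.30 and 6.60 ± 0.17 in WT and 6.23 ± 0.29, 6.27 ± 0.09 and 6.29 ± 0.13 in Mmp13-/- tissue (SD, n = 3, 4 and 4), again lowest in WT tissue of 7 d and nearly level in Mmp13-/- tissue. At 7 d this mean was 4.94 (replicate 1), 6.29 and 5.83 on the WT arrays, against 5.91, 6.31 and 6.47 on the Mmp13-/- arrays. The low WT mean of 7 d thus leans on replicate 1, one of the arrays that stood apart.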

How the data were processed

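The authors deposited RMA-normalized log2 expression values of Affymetrix mouse genome arrays, made in Chipster per the study's methods, 1 column for each of 22 samples, with 2 decimals and a range of 1.43 to 13.77. RMA summarises the probes of a probe set and quantile-normalizes the arrays, so values are relative to the whole array, and whether all arrays went through 1 run was not given in the sources used here. Scanner data were not used. Of 45101 probe sets, 64 controls were left out and 45037 tested. GEO's platform annotation named 1 gene for 34945 probe sets, several for 932 and none for 9160, and 34741 of the first matched RefSeq on GRCm38.p6. A gene was read from its own brightest probe set.

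limma 3.58.1 in R 4.3.3 was used to fit 6 group means and the hybridization series to all 22 arrays (lmFit, eBayes, 15 residual degrees of freedom), with Benjamini-Hochberg adjustment over all tested probe sets. Calls needed an adjusted p under 0.05. The fit was tested on simulated data. Exact permutation tests were two-sided. Genes named were those called, those not called with the smallest p, and those with all arrays of 1 group on one side. The 35 genes and all lists were chosen with earlier results of these data known. Alternatives left out the hybridization term, single arrays or a series, centred the arrays, filtered dim probe sets, used a replicate block, trend and robust eBayes, or averaged probe sets. Tables and plots used Python 3.11.15, numpy 2.4.6, pandas 2.3.3 and matplotlib 3.10.9. The 22 arrays limit the precision, and p-values measure the spread between mice, each with 1 array.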

Additional observations from a re-analysis of the deposited data

Results flagged for a closer look

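In 11 of 144 groups of 4 arrays, 1 array lay far from the other 3, with a gap to its neighbour past the 95% limit of Dixon's test, which chance gives in about 1 in 20 groups. Of these, 3 were on WT 14 d replicate 4, the array of that group from hybridization series 2: Tal1 at 5.58 (the nearest other array at 4.96), Apln at 6.88 (7.48) and Dll4 at 4.60 (5.28). Another pair was on WT 14 d replicate 3, one of the arrays that stood apart: Plvap at 9.41 (8.67) and Myct1 at 6.72 (5.97). In WT tissue of 21 d, Esam was at 8.13 on replicate 4 (7.64) and Egfl7 at 7.58 on replicate 3 (8.08). In Mmp13-/- tissue, Eng at 7.75 (7.81) and Aplnr at 9.12 (8.75) stood out on 14 d replicate 1, Gja5 at 2.11 (2.57) on 21 d replicate 2 and Cdh5 at 6.82 (7.31) on 21 d replicate 4. For Eng the gap was 0.06, in a group whose values spread over 0.07.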

How the results depend on the processing

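Leaving out 1 array at a time gave 1 to 16 endothelial genes called in WT tissue from 7 d to 14 d (median 0.51 to 1.12), 0 to 1 in Mmp13-/- tissue, 0 to 1 in WT tissue from 14 d to 21 d and 0 to 1 between genotypes at 21 d. At an unadjusted p under 0.05 it gave 1 to 23 higher at 7 d (median 0.12 to 0.78), 1 to 12 lower at 14 d, 4 to 9 lower at 21 d and 8 to 23 lower for the change from 7 d to 14 d (median -1.04 to -0.41), with 18 to 28 higher in WT tissue from 7 d to 14 d. The mean per array differed by 0.10 to 0.66 between genotypes at 7 d and by 0.44 to 1.0 in WT tissue from 7 d to 14 d. In Mmp13-/- tissue from 7 d to 14 d the median turned to -0.06 and the difference of the means per array to -0.10 without Mmp13-/- 7 d replicate 1, and in WT tissue from 14 d to 21 d the latter turned to -0.03 without WT 14 d replicate 1.

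Leaving out both arrays that stood apart, chosen after seeing the data, gave 0 calls in WT tissue from 7 d to 14 d (9 at an unadjusted p, median 0.39), 1 higher at 7 d (median 0.12), 11 lower at 21 d and 4 lower for the change (median -0.27). A fit to the groups compared alone gave 0 calls in WT and 2 in Mmp13-/- tissue from 7 d to 14 d, and 2, 17 and 12 genes at an unadjusted p at 7, 14 and 21 d. Series 1 alone gave 4 calls in WT tissue and 8 genes at 7 d, and series 2 alone 12 at 21 d. Without the hybridization term 2 were called in WT tissue from 14 d to 21 d. The sign turned for Tal1 (-0.23 without Mmp13-/- 14 d replicate 4, within a range of -0.23 to 0.52 over single arrays left out) and Erg (-0.01 without the hybridization term) from 14 d to 21 d in Mmp13-/- tissue, and Efnb2 in the change from 14 d to 21 d was at 0.00 in series 2 alone. The cause was not tested.

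With a replicate block, 7 genes were called in WT tissue from 7 d to 14 d and 1 in Mmp13-/- tissue, and 0 in the other comparisons. Arrays with the same number did not deviate together more than others (median r of -0.00253 over 46 pairs, against -0.00597 over 120). Single pairs of the same number ranged from -0.332 to 0.591, so the median cannot exclude that some shared more than a number.

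The number of arrays limits what small differences can show, and the dim probe sets of Gja5 and Sele carry little signal.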

Other observations

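Lymphatic markers had their highest means at 21 d in both genotypes. The mean over 5 markers was 5.04, 5.51 and 6.83 in WT and 5.19, 5.85 and 6.56 in Mmp13-/- tissue at 7, 14 and 21 d. These means do not allow for the hybridization series, which 7 d and 21 d do not share. At 14 d replicate 3 was the highest array of each genotype, at 6.28 in WT and 6.73 in Mmp13-/- tissue. In WT tissue from 14 d to 21 d, beside Reln, the lymphatic VEGF receptor Flt4 had a difference of 1.64 (limma adjusted p = 0.0766) and Mmrn1 one of 3.09 (adjusted p = 0.122). At 21 d the angiopoietin ligand Angpt1 (-0.79, adjusted p = 0.0691) and the lymphatic growth factor Vegfd (-0.87, adjusted p = 0.141) had lower and Vegfa (0.61, adjusted p = 0.167) higher means in Mmp13-/- than in WT tissue, none of them called.

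Of the blood cell lists, the median differences between genotypes at 7, 14 and 21 d were -0.06, -0.46 and -0.07 for 7 neutrophil markers, -0.04, -0.02 and -0.24 for 9 T and B cell markers, 0.05, -0.18 and 0.02 for 8 mast cell markers and 0.02, -0.03 and 0.01 for 5 erythroid markers, with none called. Of the others, 10 keratinocyte markers had 0.06, -0.74 and -0.33, 6 adipocyte markers -0.35, -0.22 and -0.14, 8 skeletal muscle markers 0.07, -0.08 and 0.06, and 9 cell cycle genes 0.25, 0.09 and 0.03. All 9 cell cycle genes had positive differences between genotypes at 7 d and in WT tissue from 7 d to 14 d (median 0.35).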
